A study of Mus musculus with 22 samples.

Results

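The IgLON genes Lsamp, Ntm, Opcml, Negr1 and Iglon5 encode the 5 members of a small family of neural adhesion molecules, and they are 5 of the 21691 protein-coding genes that had a 5mC level here. They were chosen by family membership and not by a rule on measured values, though with earlier results of these data known. Each gene was described by every 100 kb bin of 5mC and every 1 Mb bin of 5hmC that overlapped its annotated span, which gave 56 of the 26327 bins of 5mC and 10 of the 2641 bins of 5hmC, with 500 kb on either side as flanks. The study compared cortex, olfactory bulb and cerebellum of female C57BL/6 mice at 8 weeks of age, with no treatment and no altered allele in any group. 5mC came from oxBS-seq, where a chemical oxidation of 5hmC ahead of the bisulfite step leaves 5mC as the only protected base, with 3 cortex, 2 olfactory bulb and 2 cerebellum libraries. 5hmC came from TAB-seq, where 5hmC is shielded by glucosylation while TET oxidizes 5mC away, with 3 libraries of each tissue. The labels call the replicates technical but say that their tissues came from independent mice. The p-values of the model fits below use a spread between libraries that is shared across all bins or genes. Only the permutation p-values rest on the libraries of a single gene. Each library is bulk tissue, so that a level shared by all cells cannot be told apart from a mixture of cells with different levels. RNA-seq of the same tissues was not analysed here, and the tissue labels could not be checked against marker genes with levels of bins.

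IgLON proteins are carried on the neuronal surface by a glycolipid (GPI) anchor and bind each other, within and between family members, through their immunoglobulin domains. They are known for roles in neurite outgrowth, axon guidance and synapse formation, and Lsamp, the limbic system-associated membrane protein, was first described in limbic regions. Methylation of cytosine (5mC) at CpG sites and its oxidized form, 5hmC, which is abundant in neurons, are both found in the bodies of long neuronal genes.

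In mm10 (GRCm38), Lsamp spans chr16:39984361-42181679 on the plus strand (2197 kb, 23 bins of 100 kb), Opcml chr9:27790775-28925410 on the plus strand (1135 kb, 13 bins), Ntm chr9:28994750-29963141 on the minus strand (968 kb, 11 bins), Negr1 chr3:156561794-157316445 on the plus strand (755 kb, 9 bins) and Iglon5 chr7:43472904-43490075 on the minus strand (17.2 kb, 1 bin). Exons of any transcript covered 0.783% of the span of Lsamp, 0.834% of Ntm, 1.28% of Opcml, 1.39% of Negr1 and 15.3% of Iglon5, so the levels of the 4 long genes are almost wholly levels of introns. Opcml and Ntm point toward each other and share the 100 kb bin chr9:28900001-29000000 and the 1 Mb bin chr9:28000001-29000000. Lsamp, Ntm and Opcml each have a second annotated start of coding transcripts inside the gene, at position 41532858 in intron 2 of the longest coding transcript of Lsamp, at 29412204 in intron 1 of Ntm and at 28403797 in intron 1 of Opcml. The sequences before the inner starts of Lsamp and Opcml are shown because the 5mC levels below change near them, with the promoter of Negr1, which has a single start, beside them. Each run is the 200 bases before the outermost exon annotated at that start, 5′ to 3′, from the GRCm38 genome, with each CpG (CG, which reads the same on both strands) in capitals.
Lsamp, inner start, chr16:41532626-41532825, plus strand: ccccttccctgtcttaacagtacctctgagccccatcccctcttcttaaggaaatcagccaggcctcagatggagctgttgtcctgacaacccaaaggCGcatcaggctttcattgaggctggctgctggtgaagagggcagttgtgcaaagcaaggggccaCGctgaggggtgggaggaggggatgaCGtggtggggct
Opcml, inner start, chr9:28402871-28403070, plus strand: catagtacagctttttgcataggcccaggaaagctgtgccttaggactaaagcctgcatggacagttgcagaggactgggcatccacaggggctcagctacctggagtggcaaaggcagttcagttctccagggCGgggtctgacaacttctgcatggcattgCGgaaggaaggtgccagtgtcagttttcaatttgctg
Negr1, chr3:156561590-156561789, plus strand: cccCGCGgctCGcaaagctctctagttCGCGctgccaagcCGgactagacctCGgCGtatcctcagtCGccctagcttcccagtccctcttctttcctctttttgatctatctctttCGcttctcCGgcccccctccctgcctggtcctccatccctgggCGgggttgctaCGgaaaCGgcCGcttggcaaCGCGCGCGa
These windows held 3, 2 and 19 CpG sites, in that order, and the windows of the outer starts of Lsamp, Ntm, Opcml and of Iglon5 held 5, 2, 0 and 11. Among 32851 promoter windows of the same length from RefSeq, in which all 5 genes were found, the median was 5 CpG sites. Fewer CpG sites than in the window of Negr1 were found in 85.6% of these promoters, and fewer than in the inner windows of Lsamp and Opcml in 34.4% and 23.3%. A count of CpG sites in a window describes the sequence and says nothing of the methylation of those sites, which the bins of 100 kb do not resolve.

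The authors deposited the level of each bin as a fraction from 0 to 1, without read counts or coverage. The depth behind each level is therefore unknown, and errors are SDs over the libraries of a tissue. Within tissues the 5mC libraries correlated at r = 0.947 to 0.982 (Pearson, over bins), and no libraries held identical values. All 56 bins of 5mC and all 10 of 5hmC passed the filter against levels of 0 or 1. Differences were tested with limma on the log2 ratio scale, log2(level/(1 − level)), with Benjamini-Hochberg adjustment over all bins or genes and a threshold of 0.05. On this scale the median 100 kb bin of the genome was higher in 5mC by 0.22 in olfactory bulb and by 0.43 in cerebellum than in cortex, and by 0.19 in cerebellum than in olfactory bulb. For 5hmC the median 1 Mb bin differed by −0.24, −0.97 and −0.72, in the same order. Differences are therefore also given after subtracting each library's median, called centred below.

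Lsamp and Opcml carried more 5mC in cerebellum than in cortex, whereas Ntm, Negr1 and Iglon5 did not differ between tissues beyond the test's threshold when one mean was taken per gene. The mean 5mC over the bins of Lsamp was 0.660, 0.669 and 0.644 in the cortex libraries, 0.727 and 0.728 in olfactory bulb, and 0.766 and 0.754 in cerebellum. The order of the tissue means was 0.658 ± 0.0127 (SD, n = 3), 0.727 ± 0.00107 (n = 2) and 0.760 ± 0.00881 (n = 2), and no library of one tissue fell within the range of another. For Opcml, the opioid-binding cell adhesion molecule, the levels were 0.617, 0.595 and 0.592 in cortex, 0.672 and 0.662 in olfactory bulb, and 0.749 and 0.730 in cerebellum. Here too the 3 tissues did not overlap, with means of 0.601 ± 0.0138, 0.667 ± 0.00698 and 0.739 ± 0.0140. The library medians over all 100 kb bins did not overlap either. They ran from 0.679 to 0.706 in cortex, 0.728 to 0.730 in olfactory bulb and 0.745 to 0.761 in cerebellum. The share of all genes without overlap was not counted. Ntm, which encodes neurotrimin, had 0.602, 0.596 and 0.579 in cortex, 0.624 and 0.608 in olfactory bulb, and 0.628 and 0.618 in cerebellum. The olfactory bulb and cerebellum libraries of Ntm overlapped, and both lay just above those of cortex. Negr1, the neuronal growth regulator, had 0.630, 0.638 and 0.609 in cortex, 0.618 and 0.607 in olfactory bulb, and 0.655 and 0.640 in cerebellum, and its cortex and olfactory bulb libraries overlapped. Iglon5 had 0.590, 0.560 and 0.569 in cortex, 0.606 and 0.601 in olfactory bulb, and 0.612 and 0.592 in cerebellum, with all cortex libraries below the others and the other tissues overlapping. With so few libraries an exact permutation test could reach at best p = 0.2 between cortex and another tissue and 0.333 between olfactory bulb and cerebellum.

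In the limma fit over 21691 genes, Lsamp was higher in olfactory bulb than in cortex by 0.47 (SE 0.113, adjusted p = 0.00177) and in cerebellum than in cortex by 0.72 (adjusted p = 3.55e-07) on the log2 ratio scale. Its difference of 0.25 between cerebellum and olfactory bulb did not pass (adjusted p = 0.135). Opcml was higher by 0.41 in olfactory bulb than in cortex (adjusted p = 0.0064), by 0.91 in cerebellum than in cortex (adjusted p = 1.4e-09) and by 0.50 in cerebellum than in olfactory bulb (adjusted p = 0.00154). The differences of Ntm were 0.14, 0.19 and 0.04, those of Negr1 −0.08, 0.13 and 0.21, and those of Iglon5 0.18, 0.17 and −0.01, all short of the threshold. Thus 2, 2 and 1 of the 5 genes were called higher in these comparisons and 0 lower. Among all genes, 26.4%, 55.1% and 18.0% were called higher and 0.867%, 4.27% and 7.69% lower. Relative to each library's median, Lsamp was still higher in olfactory bulb (0.26, adjusted p = 0.0305) and cerebellum (0.38, adjusted p = 0.00108) than in cortex, and Opcml in cerebellum than in cortex (0.57, adjusted p = 0.00026) and olfactory bulb (0.37, adjusted p = 0.00547). Centring took Opcml below the threshold between olfactory bulb and cortex (0.20, adjusted p = 0.126) and brought Negr1 past it in the other direction, lower than cortex in olfactory bulb (−0.29, adjusted p = 0.0183) and in cerebellum (−0.21, adjusted p = 0.0205). The centred background was 3.56% higher and 4.73% lower for olfactory bulb against cortex, 15.3% and 26.5% for cerebellum against cortex, and 13.7% and 21.9% for cerebellum against olfactory bulb. Some of these calls rested on single libraries. Without olfactory bulb replicate 1 the adjusted p between olfactory bulb and cortex was 0.0526 for Lsamp and 0.138 for Opcml, without olfactory bulb replicate 2 it was 0.0509 for Opcml, and without cerebellum replicate 1 that of Opcml between cerebellum and olfactory bulb was 0.0645. The centred call of Lsamp in olfactory bulb was lost without any single library except cortex replicate 3 (adjusted p 0.062 to 0.152), and the centred calls of Negr1 were lost without either library of olfactory bulb (0.0828 and 0.0893) or of cerebellum (0.125 and 0.0959), respectively.

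**Figure D1:**
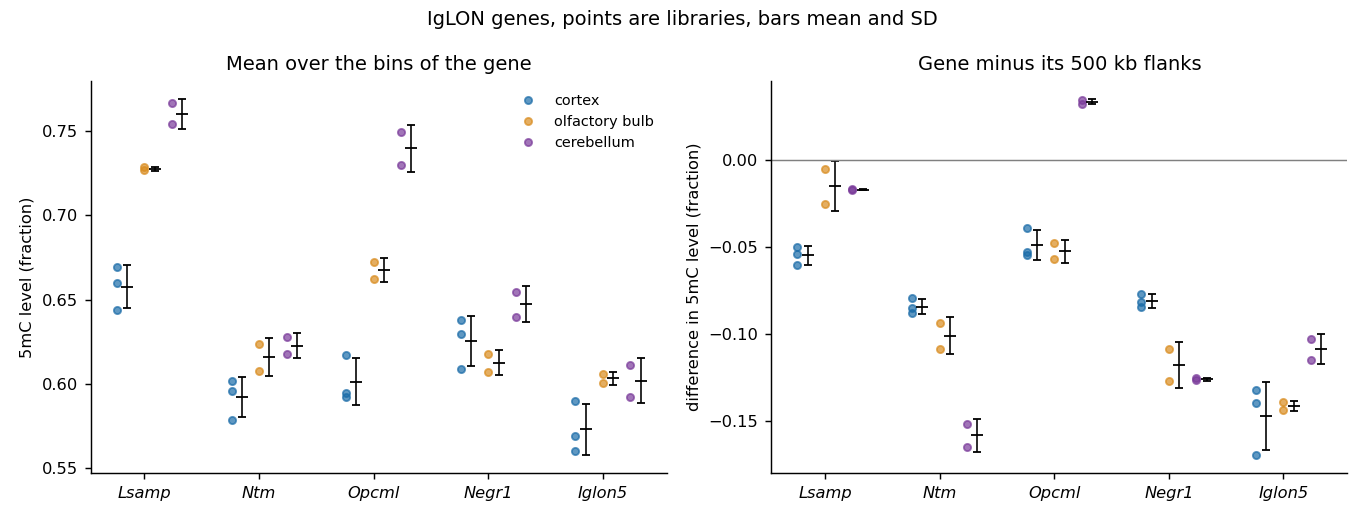
Mean 5mC of each IgLON gene over its 100 kb bins (fraction) and the same level minus that of its flanks (difference in fraction), for each oxBS-seq library as a point, with the tissue mean and SD. Lsamp and Opcml rise from cortex (0.658 and 0.601) to cerebellum (0.760 and 0.739), while Ntm stays between 0.592 and 0.623. Only Opcml in cerebellum lies above the mean of its flanks, which are all before its start.

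Along Lsamp the levels formed 2 plateaus that met at the inner start. The 16 bins upstream of it, in the direction of transcription, averaged 0.679, 0.690 and 0.666 in cortex, 0.743 and 0.746 in olfactory bulb, and 0.808 and 0.792 in cerebellum. The 7 bins from the inner start to the end of the gene averaged 0.615, 0.621 and 0.593 in cortex, 0.690 and 0.688 in olfactory bulb, and 0.670 and 0.667 in cerebellum. Cerebellum was thus the highest tissue before the inner start, and olfactory bulb after it. The bin before the step, chr16:41400001-41500000, had 0.692, 0.710 and 0.691 in cortex, 0.732 and 0.742 in olfactory bulb, and 0.826 and 0.821 in cerebellum. The next bin, chr16:41500001-41600000, which holds the inner start and was the lowest of the gene by the mean over tissues, had 0.558, 0.570 and 0.577, then 0.651 and 0.658, then 0.631 and 0.657. The change from one bin to the next was −0.129 ± 0.0138 for cortex, −0.0820 ± 0.00194 for olfactory bulb and −0.179 ± 0.0216 for cerebellum. The largest difference between cerebellum and cortex lay upstream, at chr16:40400001-40500000, with 0.629, 0.654 and 0.601 in cortex, 0.714 and 0.728 in olfactory bulb and 0.801 and 0.796 in cerebellum (1.23 on the log2 ratio scale, SE 0.117, adjusted p = 2.93e-22). The highest bin by the mean over tissues, chr16:40700001-40800000, had tissue means of 0.706, 0.761 and 0.818, and the bin of the outer start, chr16:39900001-40000000, had 0.692, 0.743 and 0.779, with no dip there. Lsamp starts at position 39984361, so most of this bin lies before the gene. The lower levels of the downstream part ran on past the end of Lsamp into chr16:42200001-42300000 and chr16:42300001-42400000, which overlap Gap43, the gene of a growth cone protein. There the tissue means were 0.671, 0.681 and 0.687, and 0.611, 0.682 and 0.636, before the next bin reached 0.726, 0.752 and 0.810.

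Opcml also changed level at its inner start, but stayed highest in cerebellum on both sides. Its 7 upstream bins averaged 0.632, 0.613 and 0.601 in cortex, 0.698 and 0.686 in olfactory bulb, and 0.781 and 0.763 in cerebellum. Its 6 downstream bins averaged 0.600, 0.573 and 0.582 in cortex, 0.642 and 0.634 in olfactory bulb, and 0.712 and 0.690 in cerebellum. The bin of the inner start, chr9:28400001-28500000, was the lowest of the gene in all 3 tissues, with 0.504, 0.471 and 0.496 in cortex, 0.568 and 0.562 in olfactory bulb, and 0.593 and 0.574 in cerebellum. It differed from the bin before it by −0.121 ± 0.0105, −0.104 ± 0.00386 and −0.184 ± 0.0134, respectively. The level rose again in the following bin, to tissue means of 0.587, 0.618 and 0.699. In Lsamp the tissue means also rose in the bin after that of the inner start, to 0.623, 0.698 and 0.657. The rise there was small in cerebellum, where replicate 2 went from 0.657 to 0.651. The largest difference of any IgLON bin on levels as deposited was in Opcml, at chr9:28000001-28100000 (with centred levels it was in Ntm, at chr9:29300001-29400000, with −1.39 between cerebellum and cortex against 0.94 here), where cortex had 0.626, 0.605 and 0.587, olfactory bulb 0.688 and 0.692, and cerebellum 0.806 and 0.787. Cerebellum was higher there than cortex by 1.35 (SE 0.117, adjusted p = 2.87e-26) and than olfactory bulb by 0.82 (adjusted p = 8.13e-09) on the log2 ratio scale. The bin of the outer start, chr9:27700001-27800000, had tissue means of 0.641, 0.721 and 0.749. Opcml starts at position 27790775, so most of this bin lies before the gene.

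Ntm was the gene in which the tissues moved apart in opposite directions. In its 5 upstream bins the order was cortex (0.598, 0.604 and 0.579), olfactory bulb (0.671 and 0.664) and cerebellum (0.705 and 0.693), and the tissues did not overlap. In its 6 bins from the inner start onward cortex had 0.605, 0.588 and 0.579, olfactory bulb 0.585 and 0.562, and cerebellum 0.564 and 0.554, so that cerebellum lay below every cortex library. At the upstream end, chr9:29800001-29900000 had 0.594, 0.589 and 0.574 in cortex, 0.683 and 0.683 in olfactory bulb, and 0.765 and 0.749 in cerebellum (cerebellum against cortex 1.14, SE 0.117, adjusted p = 1.54e-19). The 2 bins that follow the inner start went the other way. In chr9:29300001-29400000 the levels were 0.593, 0.580 and 0.565 in cortex, 0.523 and 0.511 in olfactory bulb, and 0.416 and 0.408 in cerebellum, a difference of −0.98 between cerebellum and cortex (adjusted p = 8.79e-15) and of −0.61 between cerebellum and olfactory bulb (adjusted p = 2.24e-05). In chr9:29200001-29300000 they were 0.565, 0.577 and 0.570, then 0.506 and 0.452, then 0.426 and 0.423, with differences of −0.85 between cerebellum and cortex (adjusted p = 1.54e-11) and −0.53 between olfactory bulb and cortex (adjusted p = 0.000117). The bin of the inner start itself, chr9:29400001-29500000, lies for the most part upstream of that start, although it was counted as downstream. It showed no such fall in cerebellum, with 0.572, 0.534 and 0.529 in cortex, 0.578 and 0.566 in olfactory bulb, and 0.620 and 0.606 in cerebellum. Against the bin before it, its level differed by −0.0486 ± 0.0166 in cortex and −0.0535 ± 0.0205 in olfactory bulb, but by 0.0363 ± 0.00442 in cerebellum. The bin of the outer start, chr9:29900001-30000000, had tissue means of 0.577, 0.684 and 0.728. The bin shared with the end of Opcml was the highest of Ntm by the mean over tissues (0.647, 0.678 and 0.780), though not in olfactory bulb. Opcml ends in this bin at 28925410 and Ntm covers it only from 28994750, so most of it lies in neither gene.

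**Figure D2:**
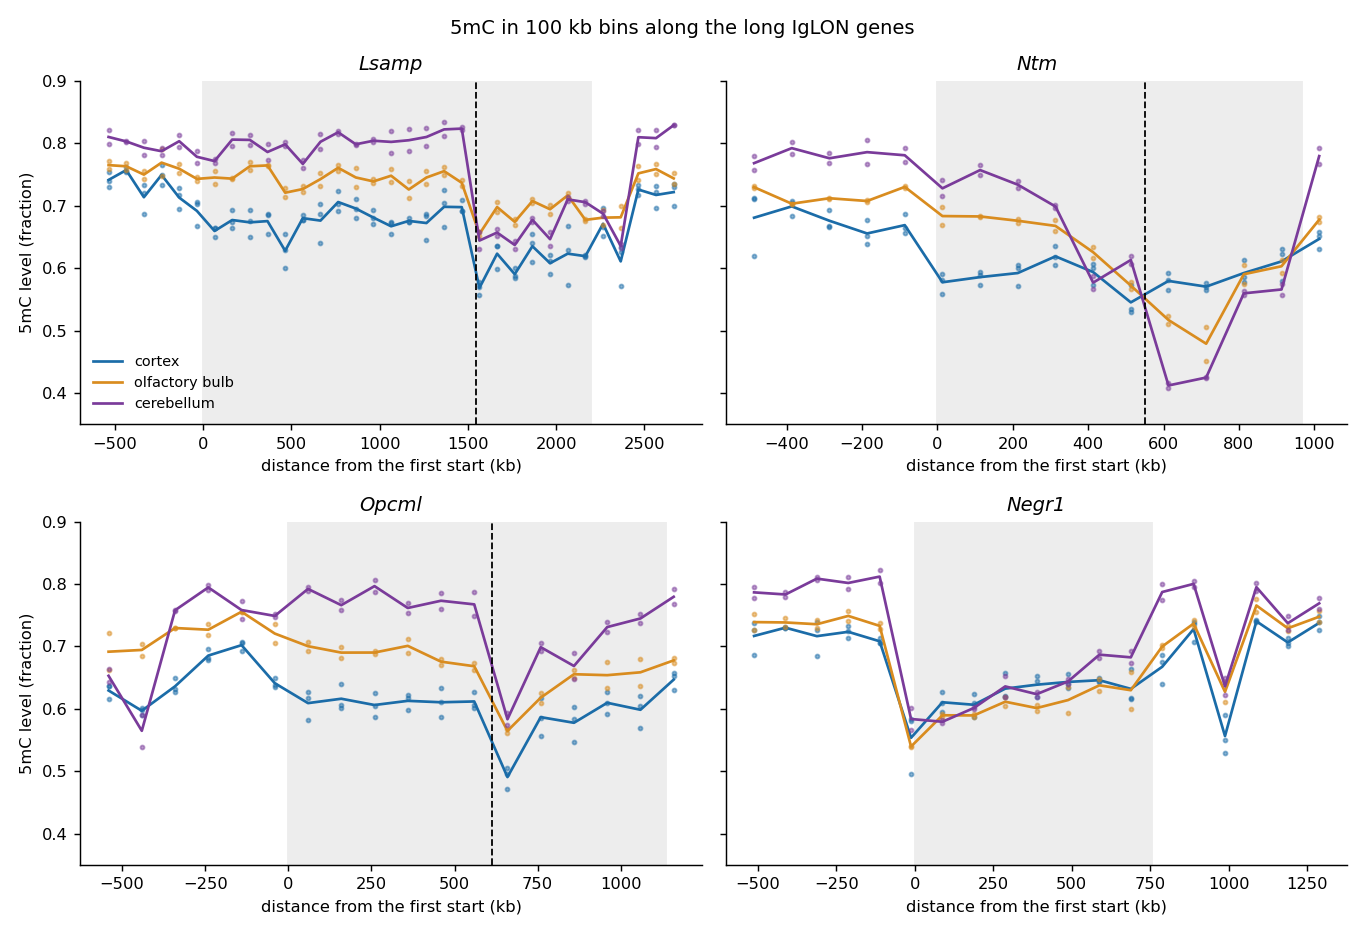
5mC level (fraction) of each 100 kb bin along Lsamp, Ntm, Opcml and Negr1 and their 500 kb flanks against the distance from the outer (first) start in the direction of transcription (kb), with points for libraries, lines for tissue means, grey for the gene and a dashed line at the inner start. In Lsamp the cerebellum line drops at the inner start from 0.824 to 0.644, and in Ntm it runs from 0.757 in the upstream part to 0.412 past the inner start.

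Negr1 showed the reverse slope, with the lowest levels at its start and the highest at its end, and few differences between tissues. The last bin before it, chr3:156400001-156500000, had 0.713, 0.706 and 0.706 in cortex, 0.729 and 0.737 in olfactory bulb, and 0.822 and 0.802 in cerebellum. The start bin, chr3:156500001-156600000, was the lowest by the mean over tissues (the next bin was slightly lower in cerebellum), with 0.581, 0.584 and 0.496 in cortex, 0.538 and 0.541 in olfactory bulb, and 0.601 and 0.566 in cerebellum, and cortex replicate 3 stood below the other libraries. Every library thus fell from the bin before the gene to the bin of its start, which also holds the CpG-rich promoter shown above, and the fall was deepest in cerebellum. Negr1 starts at position 156561794, so most of its start bin lies before the gene. The last bin, chr3:157300001-157400000, was the highest, with 0.687, 0.675 and 0.641 in cortex, 0.697 and 0.702 in olfactory bulb, and 0.799 and 0.775 in cerebellum. Negr1 ends at position 157316445, so most of this bin lies past the gene. Cerebellum was higher there than cortex by 0.88 (SE 0.118, adjusted p = 2.26e-12) and than olfactory bulb by 0.67 (adjusted p = 3.27e-06). The largest difference between olfactory bulb and cortex that went below 0 in Negr1, at chr3:156900001-157000000, was −0.23 (adjusted p = 0.0994). It passed without cortex replicate 3 (−0.29, adjusted p = 0.0312) and with centred levels (−0.46, adjusted p = 0.000709). Iglon5, with its single bin chr7:43400001-43500000, gave a level that it shares with 8 other protein-coding genes in that bin, so it cannot be read as a level of Iglon5 alone.

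Over the 56 bins, 38 were called higher and 2 lower in olfactory bulb than in cortex, 42 higher and 3 lower in cerebellum than in cortex, and 29 higher and 3 lower in cerebellum than in olfactory bulb. The background over 25664 bins was 37.6% higher and 2.18% lower, 71.9% and 4.44%, and 35.3% and 7.69%, in the same order. The median difference over the 56 bins was 0.39, 0.72 and 0.31 on the log2 ratio scale. Relative to the library medians the counts were 20 higher and 10 lower (background 8.81% and 9.90%), 31 and 12 (25.7% and 24.3%), and 22 and 9 (22.1% and 21.3%). Without one of the libraries of olfactory bulb the 38 calls fell to 21 or 25, and the 29 calls between cerebellum and olfactory bulb to 20 without olfactory bulb replicate 1 or cerebellum replicate 1. Over all single libraries left out, the counts of lower bins ran from 0 to 3, from 2 to 4 and from 1 to 5. The calls were not spread evenly over the genes. Between cerebellum and cortex, all 16 upstream bins of Lsamp and all 7 of Opcml were called higher (median differences 0.97 and 1.07), as were 4 of the 5 upstream bins of Ntm (0.92), 5 of the 7 downstream bins of Lsamp (0.29), all 6 of Opcml (0.75) and 3 of the 9 bins of Negr1 (0.02). The downstream part of Ntm held 2 bins called higher, including the bin shared with the end of Opcml, and all 3 bins called lower (median −0.23). With centred levels, the 16 and 7 upstream bins of Lsamp and Opcml were still called higher, whereas the downstream part of Lsamp had 0 higher and 1 lower and Negr1 had 1 higher and 5 lower. Between olfactory bulb and cortex, 7 of the 9 bins of Negr1 were called lower once centred.

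The difference between the parts before and after the inner start was computed for every protein-coding gene with coding starts at least 300 kb apart, which gave 69 genes. This split was added after the levels along the genes had been seen. Within each library the level after the inner start was subtracted from the level before it. For Lsamp the result was 0.0647, 0.0692 and 0.0727 in cortex, 0.0523 and 0.0581 in olfactory bulb, and 0.138 and 0.125 in cerebellum. For Ntm it was −0.00759, 0.0159 and −0.000109 in cortex, 0.0861 and 0.102 in olfactory bulb, and 0.141 and 0.139 in cerebellum. For Opcml it was 0.0326, 0.0402 and 0.0184 in cortex, 0.0564 and 0.0522 in olfactory bulb, and 0.0695 and 0.0731 in cerebellum. The largest values were thus in cerebellum in all 3 genes, no tissues overlapped, and the medians over the 69 genes were 0.00167, 0.00497 and 0.00543. How many of the 69 genes share these traits was not counted. Nrxn3 and Trpm3, for example, also had their largest value in cerebellum (0.180 and 0.151). Celf2 and Fgf12 had theirs in olfactory bulb (0.174 and 0.150).

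On the log2 ratio scale, the upstream part of Ntm gained on the downstream part by 0.56 (SE 0.0499) between olfactory bulb and cortex, by 0.86 between cerebellum and cortex, and by 0.29 between cerebellum and olfactory bulb. Lsamp had differences of −0.04 (SE 0.0446), 0.56 and 0.60, and Opcml of 0.17 (SE 0.0445), 0.35 and 0.18, in the same order. Because the split was prompted by the profiles of these genes, the values are a description and no p is given for them. In ranks from the highest of the 69 genes, Ntm stood at 2, 3 and 13, Lsamp at 48, 4 and 3, and Opcml at 14, 6 and 20. Over all 69 genes, limma called 27.5%, 36.2% and 34.8% higher in these comparisons. The median number of CpG sites per bin was 517 before and 582 after the inner start in Lsamp, 827 and 660 in Ntm, and 609 and 522 in Opcml.

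**Figure D3:**
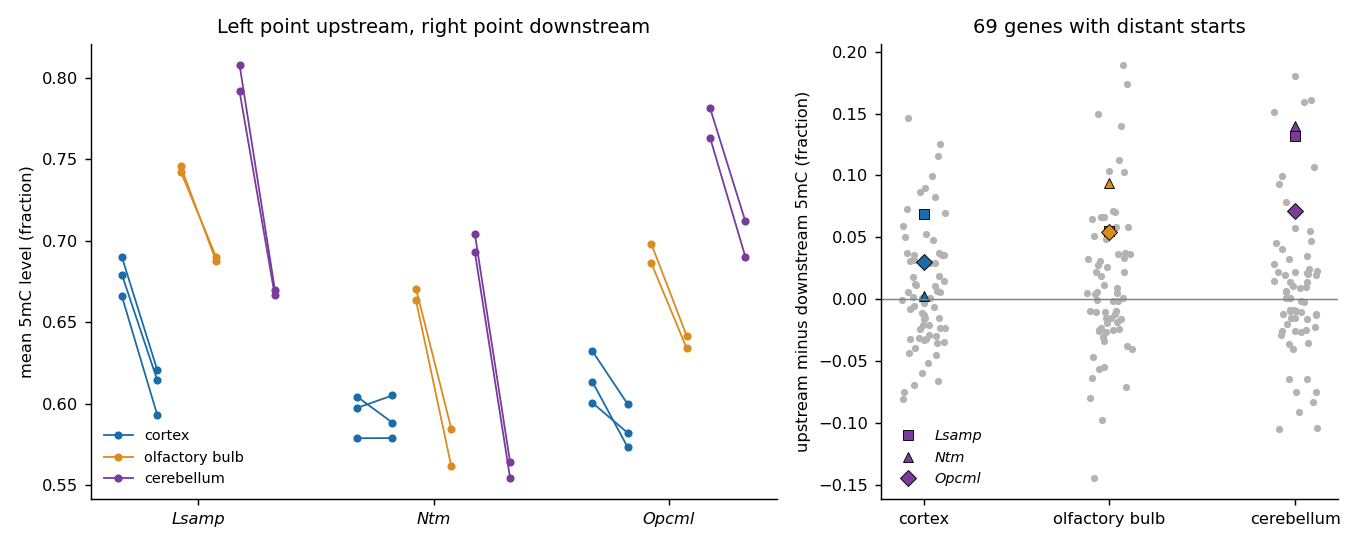
5mC level (fraction) before and after the inner start of Lsamp, Ntm and Opcml for each oxBS-seq library, and the level before minus after it (difference in fraction) by tissue for all 69 genes with distant coding starts. The 3 genes reach 0.132, 0.140 and 0.0713 in cerebellum, against a median of 0.00543 over the 69 genes.

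Compared with the 500 kb on either side, with bins of the other IgLON genes left out, 5mC was lower in all 5 genes in cortex and in olfactory bulb. In cerebellum it was lower in 4 and higher in Opcml. The share of all genes that lie below their flanks, or whose tissues do not overlap in this difference, was not counted. Opcml minus its 5 flank bins was −0.0387, −0.0527 and −0.0545 in the cortex libraries, −0.0569 and −0.0478 in those of olfactory bulb, and 0.0326 and 0.0348 in those of cerebellum. The flanks of Opcml averaged 0.650, 0.720 and 0.706 in cortex, olfactory bulb and cerebellum. All 5 of these bins lay before its start, as did those of Ntm. In cerebellum chr9:27200001-27300000 and chr9:27300001-27400000 had means of 0.653 and 0.565. The bins nearer to Opcml had 0.758, 0.795 and 0.758, above the 0.739 of the gene itself. From cortex to cerebellum Opcml rose by more than the average of its flanks. Ntm moved the other way, with −0.0880, −0.0848 and −0.0793 in cortex, −0.0933 and −0.108 in olfactory bulb, and −0.165 and −0.151 in cerebellum. Its cerebellum libraries lay below all others here, whereas by the mean over the whole gene they lay above those of cortex, short of the threshold. Lsamp was nearer to its flanks in olfactory bulb (−0.0150 ± 0.0143) and cerebellum (−0.0168 ± 0.000307) than in cortex (−0.0547 ± 0.00526). In the same order of tissues (cortex, olfactory bulb, cerebellum), Negr1 had −0.0808 ± 0.00400, −0.118 ± 0.0133 and −0.126 ± 0.000800, and Iglon5 −0.147 ± 0.0197, −0.141 ± 0.00302 and −0.109 ± 0.00846. Exact permutation tests gave p = 0.2 for cerebellum against cortex in each of the 5 genes, without overlap, which is the smallest p for 2 libraries against 3. The signs depended on the choice of flanks in olfactory bulb, where flanks of 1 Mb turned Lsamp to 0.0170 and flanks that kept the bins of Ntm turned Opcml to 0.0314.

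Because Opcml and Ntm are neighbours, they were compared within each library over the 12 and 10 bins that they do not share. Opcml exceeded Ntm by 0.0179, −0.000232 and 0.0154 in cortex, 0.0535 and 0.0600 in olfactory bulb, and 0.134 and 0.124 in cerebellum. The genes were thus nearly level in cortex (0.0110 ± 0.00982) and apart in cerebellum (0.129 ± 0.00744). No tissues overlapped, and the exact permutation p was at its smallest possible value in each comparison (0.2, 0.2 and 0.333). The slope along the genes was taken as the mean of the first bins minus that of the last bins in the direction of transcription, with 7 of 23 bins at each end for Lsamp, 3 of 11 for Ntm, 4 of 13 for Opcml and 3 of 9 for Negr1. It was above 0 in all libraries for Lsamp (tissue means 0.0597, 0.0549 and 0.119) and Opcml (0.00998, 0.0390 and 0.0450) and below 0 in all for Negr1 (−0.0582, −0.0829 and −0.131). With bins wholly inside Negr1 the slope was smaller, at −0.0304, −0.0442 and −0.0944 in cortex, olfactory bulb and cerebellum. In Ntm it was −0.0416, −0.0180 and −0.0351 in cortex but 0.0529 and 0.0613 in olfactory bulb and 0.104 and 0.105 in cerebellum. The sign in cortex was not stable, since bins wholly inside Ntm gave 0.00780.

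Mean 5hmC over the 1 Mb bins of each gene was lower in cerebellum than in cortex for all 5 genes, and lower than in olfactory bulb for all 5. Of all 1 Mb bins of the genome, 97.6% and 91.8% were also called lower in these comparisons, and relative to the library medians 0 of the 5 genes were lower in either. Lsamp had 0.204, 0.221 and 0.194 in cortex, 0.186, 0.189 and 0.179 in olfactory bulb, and 0.138, 0.134 and 0.139 in cerebellum. Opcml had 0.229, 0.246 and 0.220, then 0.218, 0.225 and 0.218, then 0.166, 0.162 and 0.168. Negr1 had 0.193, 0.205 and 0.186, then 0.192, 0.196 and 0.190, then 0.152, 0.151 and 0.152. The cerebellum libraries lay below all others in these 3 genes, and cortex and olfactory bulb overlapped in Opcml and Negr1. Iglon5 had tissue means of 0.0908 ± 0.00790, 0.0586 ± 0.00284 and 0.0438 ± 0.00214 (n = 3 each), in a bin of which the gene covers 1.72%. Ntm had the highest mean in each tissue (0.250 ± 0.0127, 0.256 ± 0.00408 and 0.232 ± 0.00191) and the smallest difference between cerebellum and cortex. The difference of −0.0185 for Ntm came from the bin that is mostly Opcml, since weighting bins by overlap turned it to 0.0177. For cerebellum against cortex the exact permutation p was 0.1 in each gene, the smallest that 3 libraries against 3 allow.

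The bin chr9:29000001-30000000, of which Ntm covers 96.3%, differed from the other IgLON bins in that its 5hmC did not go down in cerebellum. Its level was 0.253, 0.263 and 0.241 in cortex, 0.260, 0.265 and 0.258 in olfactory bulb, and 0.271, 0.269 and 0.272 in cerebellum. All cerebellum libraries lay above the others. In order of level the bin was at rank 1 of 2581 in cortex, and at ranks 4 and 2 in olfactory bulb and cerebellum. The difference between cerebellum and cortex, 0.14 on the log2 ratio scale (SE 0.0732), did not pass in limma (adjusted p = 0.0639), but it passed on fractions (adjusted p = 0.00132), with trend and robust options (adjusted p = 0.0196) and without cortex replicate 2 (0.18, adjusted p = 0.00294). Relative to the library medians it was 1.18 (adjusted p = 3.13e-10), and by the difference in level from cortex to cerebellum the bin stood at rank 9 of 2581. The neighbouring bin chr9:28000001-29000000, of which Opcml covers 92.5%, had 0.246, 0.264 and 0.235 in cortex, 0.246, 0.256 and 0.249 in olfactory bulb, and 0.196, 0.191 and 0.193 in cerebellum. Its rank went from 7 in cortex and 12 in olfactory bulb to 43 in cerebellum.

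Inside Lsamp 5hmC also differed between the parts of the gene, and it differed most in cerebellum. The bin chr16:40000001-41000000, wholly upstream of the inner start, had 0.220, 0.239 and 0.208 in cortex, 0.193, 0.193 and 0.185 in olfactory bulb, and 0.130, 0.127 and 0.132 in cerebellum. The bin chr16:41000001-42000000, which holds the inner start, had 0.230, 0.248 and 0.220, then 0.197, 0.205 and 0.195, then 0.197, 0.188 and 0.195. The bins were close in cortex and olfactory bulb, whereas in cerebellum the second was 0.193 ± 0.00494 against 0.130 ± 0.00278. The difference between cerebellum and olfactory bulb in this second bin, −0.05, did not pass (adjusted p = 0.476). The end bins chr16:39000001-40000000 and chr16:42000001-43000000 are covered by the gene for 1.56% and 18.2% and had tissue means of 0.172, 0.174 and 0.0745, and of 0.198, 0.175 and 0.151. The bins of Negr1, chr3:156000001-157000000 (43.8% covered) and chr3:157000001-158000000 (31.6%), had 0.203, 0.217 and 0.176, and 0.186, 0.168 and 0.127.

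Of the 10 bins, 0 were called higher and 6 lower in 5hmC in olfactory bulb than in cortex, 0 and 9 in cerebellum than in cortex, and 0 and 8 in cerebellum than in olfactory bulb. The background over 2581 bins was 3.25% higher and 67.7% lower, 0.426% and 97.6%, and 1.20% and 91.8%. Calls below 0 were thus at least as frequent over the whole genome as among these bins. Relative to the library medians, 5 were higher and 1 lower (background 36.2% and 33.0%), 8 and 2 (50.3% and 40.1%), and 9 and 1 (50.9% and 39.1%). The 2 bins that were lower than in cortex by this measure in cerebellum were the ones with the least cover by a gene of the family, chr16:39000001-40000000 at the start of Lsamp (−0.33, adjusted p = 1.26e-05) and that of Iglon5 (−0.08, adjusted p = 0.0336).

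**Figure D4:**
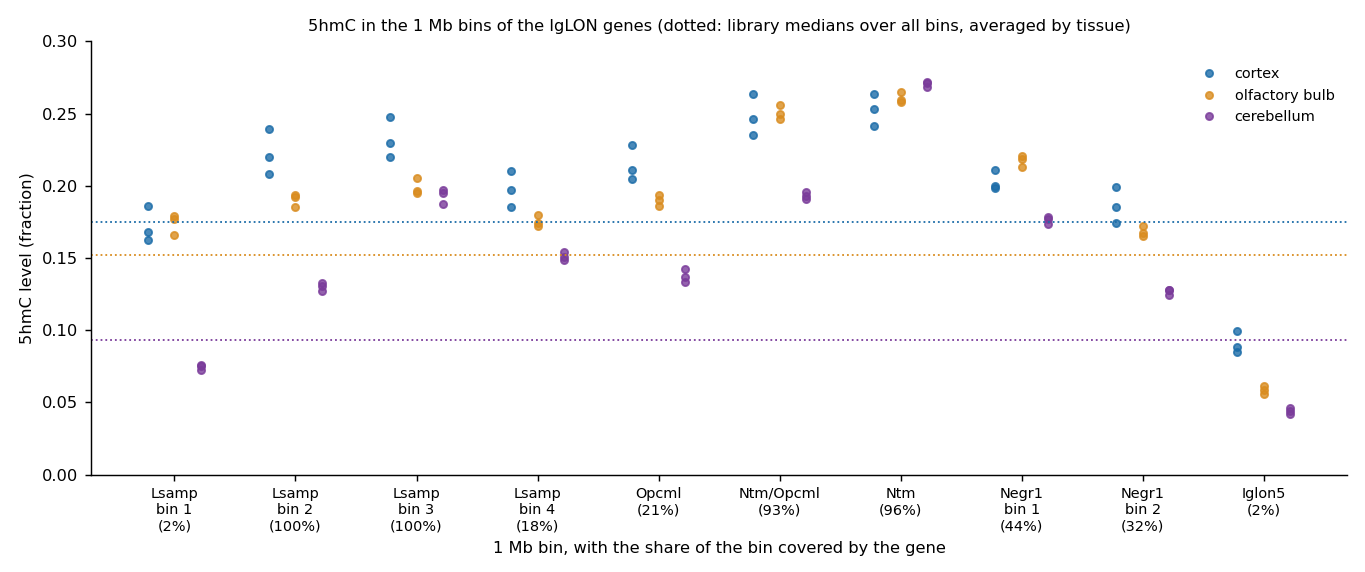
5hmC level (fraction) of the 10 bins of 1 Mb that overlap an IgLON gene, with a point per TAB-seq library, the share of each bin covered by the gene in percent, and dotted lines at the library medians averaged by tissue. The Ntm bin is the only one of the 10 whose cerebellum libraries lie above those of the other tissues, at 0.269 to 0.272.

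The sum of 5mC and 5hmC per 1 Mb bin, taken from the tissue means of the separate libraries of each assay, was above the medians of all bins in both olfactory bulb and cerebellum for 8 of the 10 bins, the exceptions being chr3:157000001-158000000 and the bin of Iglon5. In cortex the bins of Opcml and Ntm on chr9 (0.844, 0.844 and 0.839) and that of Iglon5 (0.790) lay below the median of 0.851. The share of all bins above the medians in both tissues was not counted. The Ntm bin had sums of 0.839 ± 0.0172 (cortex), 0.871 ± 0.0122 (olfactory bulb) and 0.878 ± 0.00656 (cerebellum), and 5hmC made up 30.1%, 30.0% and 30.8% of it. In the bin chr9:28000001-29000000 the sum was 0.844, 0.907 and 0.924, and the share of 5hmC was 29.4%, 27.6% and 20.9%. In the upstream bin of Lsamp, chr16:40000001-41000000, the sum was 0.898, 0.936 and 0.926 with shares of 24.8%, 20.3% and 14.0%, and in the next bin 0.876, 0.913 and 0.926 with 26.5%, 21.8% and 20.9%. The medians over all bins were 0.851, 0.863 and 0.838 for the sum and 20.5%, 17.7% and 11.1% for the share. The Iglon5 bin lay below these, with sums of 0.790, 0.785 and 0.741 and shares of 11.5%, 7.47% and 5.91%. The sums were not tested, since both assays were run on different libraries.

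**Figure D5:**
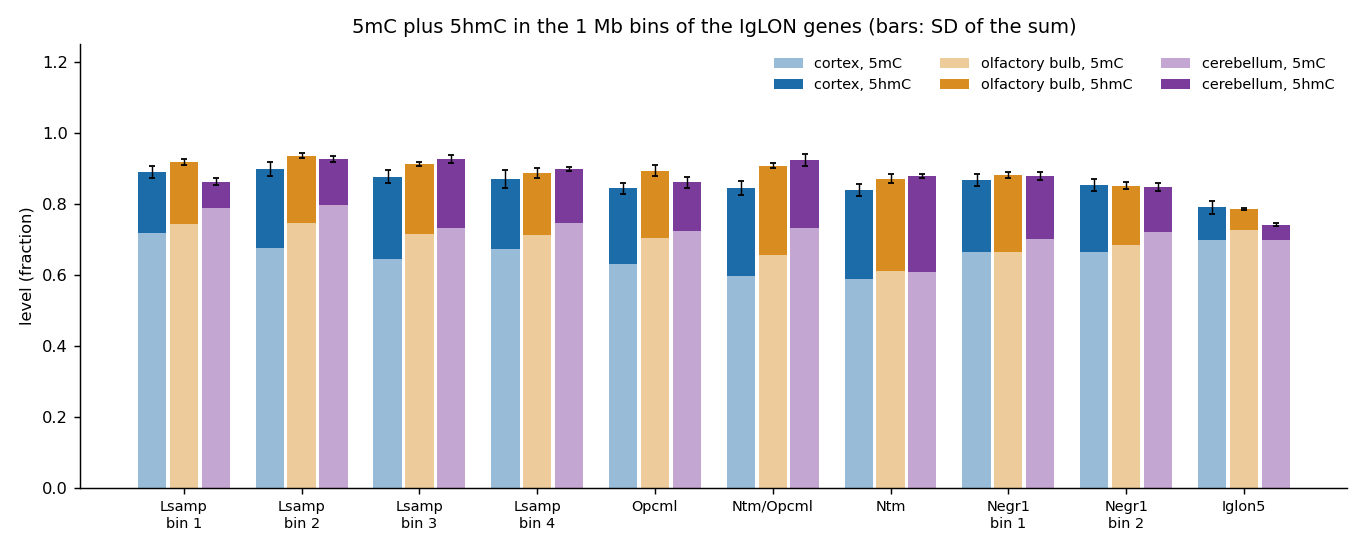
Tissue means of 5mC and 5hmC (fraction) stacked for the 10 bins of 1 Mb, with the SD of the sum as error bar. In the Ntm bin 5hmC makes up 30.1% of the sum in cortex and 30.8% in cerebellum, against 24.8% and 14.0% in the upstream bin of Lsamp.

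Other adhesion genes of the immunoglobulin superfamily gave the setting. Of 20 such genes, which include the NCAM, L1, CADM, DSCAM, sidekick and MDGA families, 4 were called higher and 2 lower in 5mC in olfactory bulb than in cortex, 13 and 1 in cerebellum than in cortex, and 11 and 2 in cerebellum than in olfactory bulb. Their median differences were 0.16, 0.49 and 0.39 on the log2 ratio scale, against 0.18, 0.19 and 0.21 for the IgLON genes. With centred levels the counts were 3 and 5, 8 and 4, and 11 and 4, so that several directions in this list depended on the scaling. Mdga2, a GPI-anchored regulator of synapse formation, had the largest difference of the list between cerebellum and cortex (1.13, SE 0.113, adjusted p = 2.43e-12), above the 0.91 of Opcml.

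Among the 2483 other protein-coding genes of at least 100 kb, with median levels of 0.651, 0.685 and 0.723 in cortex, olfactory bulb and cerebellum, the 5mC of Lsamp exceeded that of 54.5%, 78.7% and 75.0% of genes. Opcml exceeded 21.9%, 38.6% and 61.1%, so that it moved from the lower part of the order in cortex to above the middle in cerebellum. Ntm exceeded 17.9%, 16.8% and 11.9%, and Negr1 33.9%, 15.7% and 17.6%. By the root mean square difference of 5mC over the 7 libraries, the genes closest in level among 2480 were Nrg1 (0.00429) and Enpp2 (0.00661) for Lsamp, Sorbs2 (0.00791) and Nav3 (0.00961) for Opcml, Ryr1 (0.00676) and Rgs3 (0.00857) for Ntm, Hlcs (0.00867) and Rtn1 (0.00976) for Negr1, and Hivep3 (0.0102) and Map2k5 (0.0108) for Iglon5. CpG sites per 100 kb bin had a median of 751 over all tested bins, and medians of 540 in Negr1, 554 in Lsamp, 574 in Opcml and 758 in Ntm, with 1231 in the bin of Iglon5.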

How the data were processed

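Bins of 5mC (7 oxBS-seq libraries) and 5hmC (9 TAB-seq libraries) were analysed. Per the labels and the study's methods, the authors aligned reads to mm10 (Bismark), judged each CpG against a binomial model and deposited levels as a fraction per bin (100 kb for 5mC, 1 Mb for 5hmC), without counts. How sites were combined within a bin is not given in the sources used here. Such averages cannot resolve promoters or exons.

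Gene spans were taken from GENCODE release M21. A gene's level was the unweighted mean of the bins it overlaps. Bins at 0 or 1 in any library were left out. Levels were tested on log2(level/(1 − level)) with limma 3.58.1 (R 4.3.3), in 1 fit over the 3 tissues per assay, with Benjamini-Hochberg adjustment over 25664 bins, 2581 bins or 21691 genes. Within-library differences were compared with two-sided exact permutation tests. The sequence at the inner start of Ntm is not reported here. Scripts were tested on simulated data. Python 3.11.15, numpy 2.4.6, pandas 2.3.3, scipy 1.17.1 and matplotlib 3.10.9 were used.

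The genes and lists were chosen with earlier results of these data known. Single bins named are those with the annotated start, the lowest and highest mean, and the largest difference per pair of tissues. The bins around the inner starts and some bins of Negr1 were named after their values were seen. Genes of like level are the 2 nearest of at least 100 kb. The 20 other adhesion genes are Ncam1, Ncam2, Chl1, Nrcam, Nfasc, Cadm1, Cadm2, Cadm3, Cadm4, Dscam, Dscaml1, Kirrel3, Sdk1, Sdk2, Alcam, Thy1, Igsf11, Mdga1, Mdga2 and L1cam. Alternatives were centring, fractions, all bins, limma's trend and robust options, other flanks and bin rules, replicate blocks, and leaving out each library.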

Additional observations from a re-analysis of the deposited data

Results flagged for a closer look

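Opcml lay below its flanks in every library of cortex (mean −0.0486) and olfactory bulb (mean −0.0523) and above them in both libraries of cerebellum (mean 0.0337). The tissues thus went in opposite directions, and the exact permutation p was 0.2 against cortex and 0.333 against olfactory bulb, the smallest these numbers of libraries allow. The sign in olfactory bulb was the one that changed with the choice of flanks. All flank bins of Opcml lay before its start. In cerebellum those nearest to the gene (0.758, 0.795 and 0.758) were above its own 0.739.

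The first minus the last bins of Ntm were below 0 in every cortex library (mean −0.0315) and above 0 in every library of olfactory bulb (mean 0.0571) and cerebellum (mean 0.105), with an exact permutation p of 0.2 against cortex in both.

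The gain of the part before the inner start over the part after it differed between tissues, by a split added after the profiles of these genes had been seen, so these values are a description. On the log2 ratio scale it was 0.56 (cerebellum against cortex) and 0.60 (cerebellum against olfactory bulb) for Lsamp. It was 0.56 (olfactory bulb against cortex), 0.86 (cerebellum against cortex) and 0.29 (cerebellum against olfactory bulb) for Ntm, and 0.17, 0.35 and 0.18 for Opcml in the same order. The smallest of these, the Opcml values of 0.17 and 0.18, ran from 0.133 to 0.198 and from 0.165 to 0.197 with single libraries left out. On fractions the latter was 0.0170. No test result is read from any of these values.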

How the results depend on the processing

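Of 1666 values recomputed for 153 results, 1477 were labelled the same. Tested values had to keep their direction and side of the threshold, and untested ones to move by at most 1 SD. Counts were held to a looser rule, under which a fall from 29 to 20 called bins was labelled the same. For differences from flanks on the log2 ratio scale only the sign was compared. Depth is unknown, and the tests pool the spread over all bins or genes, so the SE was nearly the same for every bin. Groups of 2 libraries and averages over bins limit what can be resolved. The cause of the changes below was not tested.

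Centring on library medians turned most 5hmC bins around, since the genome median of 5hmC falls in cerebellum. For cerebellum against cortex and against olfactory bulb the log2 differences became 0.11 and 0.15 at chr16:40000001-41000000, 0.70 and 0.75 at chr16:41000001-42000000, 0.58 and 0.55 at chr16:42000001-43000000, 0.79 and 0.43 at chr3:156000001-157000000, 0.38 and 0.32 at chr3:157000001-158000000, 0.27 and 0.25 at chr9:27000001-28000000 and 0.58 and 0.32 at chr9:28000001-29000000. That of Iglon5 against olfactory bulb became 0.36. For olfactory bulb against cortex, chr16:42000001-43000000 became 0.0274, chr3:157000001-158000000 0.0605 and chr9:27000001-28000000 0.0190. Bins called higher became 5, 8 and 9 of 10 and lower 1, 2 and 1. On fractions, with all bins or with trend and robust options, 1 bin was called higher in 5hmC in olfactory bulb and 1 in cerebellum than in cortex, against 0. Mean 5hmC minus the library median in cerebellum against cortex and olfactory bulb became 0.0345 and 0.0439 for Iglon5, 0.0125 and 0.0113 for Lsamp (0.00126 for olfactory bulb against cortex), 0.0384 and 0.0175 for Negr1, 0.0630 and 0.0349 for Ntm and 0.0155 and 0.00392 for Opcml, so that 0, 0 and 1 genes were lower. Weighting bins by overlap gave 0.0177 and 0.00948 for Ntm.

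For 5mC, centring gave genes differences of −0.17 (cerebellum against cortex) and −0.0315 (olfactory bulb against cortex) for Iglon5, −0.21 (cerebellum against cortex) for Negr1, and −0.16 (cerebellum against cortex), −0.0670 (olfactory bulb against cortex) and −0.0895 (cerebellum against olfactory bulb) for Ntm. It gave 1 gene higher and 1 lower between olfactory bulb and cortex, 1 lower between cerebellum and cortex, 20 higher bins between olfactory bulb and cortex, and 10, 12 and 9 lower bins. Ntm between cerebellum and olfactory bulb was −0.0238 with weighted bins and −0.0478 with bins wholly inside, which gave 2 genes higher there. With 1 Mb flanks Lsamp in olfactory bulb was 0.0170, with all flank bins Opcml was 0.0314, and with inside bins the slope of Ntm in cortex was 0.00780. With the shared bin kept, Opcml minus Ntm was 0.0514 in olfactory bulb and 0.117 in cerebellum. The Opcml segments differed by 0.0170 on fractions between cerebellum and olfactory bulb.

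Leaving out each library in turn gave, for olfactory bulb against cortex, 5hmC differences of −0.0281 to 0.0890 at chr16:39000001-40000000 and −0.0328 to 0.0778 at chr9:28000001-29000000, centred 5mC differences of −0.108 to 0.0104 for Iglon5, 21 to 38 higher and 0 to 3 lower 5mC bins, 0 to 2 higher genes, 0 to 1 higher 5hmC bins and 0.133 to 0.198 for the Opcml segments. For cerebellum against olfactory bulb it gave −0.0648 to 0.0497 for Iglon5, −0.00663 to 0.0898 for Ntm, 0.165 to 0.197 for the Opcml segments, 1 to 5 lower 5mC bins and 0 to 1 higher genes. For cerebellum against cortex it gave 2 to 4 lower 5mC bins and 0 to 1 higher 5hmC bins.

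Whether the replicate numbers of the labels pair the samples could not be settled. Correlations between samples of the same number were −0.0932 to 0.0290 for 5mC and −0.191 to 0.429 for 5hmC. The highest of 5hmC were 0.331 between cortex and olfactory bulb (number 1), and 0.391 and 0.429 between olfactory bulb and cerebellum (numbers 1 and 2). Other 5hmC values ran from −0.191 to 0.0566. With the number as a replicate block, lower 5mC bins between cerebellum and olfactory bulb went from 3 to 6, the Ntm bin of 5hmC passed between cerebellum and cortex (adjusted p = 0.0427), which made 1 higher bin, and chr3:156900001-157000000 passed in 5mC between olfactory bulb and cortex (−0.29, adjusted p = 0.0236). No other call that was checked singly changed, and other counts kept to the looser rule given above. A block by the numbers in the library names changed no such call, and no count beyond that rule.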
